A study of Mus musculus with 20 samples.

Results

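The levels of 10 orphan and orphan-like nuclear receptor genes were described in 20 RNA sequencing libraries from the brains of mice at postnatal day 21. They were taken by symbol from the gene tables of hippocampus and amygdala: the COUP-TF genes Nr2f1, Nr2f2 and Nr2f6, the tailless homologue Nr2e1, the testicular receptors Nr2c1 and Nr2c2, the Nr4a genes Nr4a2 and Nr4a3, and the estrogen-related receptors Esrra and Esrrg. All 10 of 10 were found in both tables, which list 23412 gene symbols each, and all 10 passed the filter on low values in both tissues. Each tissue had 3 NCoR1-KO, 3 SMRT-KO and 4 control libraries. The knockouts carried Snap25-IRES2-cre, a Cre driver active in neurons throughout the brain, together with floxed NCoR1 alleles or floxed SMRT alleles. The design thus targets neurons, and which cells lost the gene was not measured here. Whether controls carried the driver or floxed alleles is not in the labels. Nor do these state that each library is a different animal, so p-values reflect only the spread of the samples, part of which may be technical.

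NCoR1 and SMRT are corepressors that nuclear receptors recruit to silence their target genes, and COUP-TF receptors are among the receptors known to repress transcription with them. COUP-TFs pattern the developing forebrain and mark interneurons of the caudal ganglionic eminence, TLX (the product of Nr2e1) maintains neural stem cells, and the products of Nr2c1 and Nr2c2 bind direct repeats of the receptor element. Nr4a receptors are encoded by immediate early genes that neuronal activity switches on through CREB, while the estrogen-related receptors work with PGC-1 coactivators on the genes of mitochondrial energy metabolism.

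The promoters of the genes with the clearest regional pattern, and of Nr4a2 as the sister gene of Nr4a3, are shown because Nr4a3 differed between regions by the test below and Nr4a2 did not pass it, although the same short element recurs in both. Each runs from 250 bases before to 50 bases after the start of transcription, 5′ to 3′ on the strand of the gene, from RefSeq on GRCm38.p6. All 10 genes matched an entry of that table. Capitals mark TGACG, the short element that CREB reads, or its reverse CGTCA, and GGGCGG, the GC box, or its reverse CCGCCC. The sequences lie at chr2:57123954-57124253 on the minus strand (Nr4a2), chr4:48045055-48045354 on the plus strand (Nr4a3), chr13:78198824-78199123 on the minus strand (Nr2f1) and chr7:70366697-70366996 on the minus strand (Nr2f2).
Nr4a2: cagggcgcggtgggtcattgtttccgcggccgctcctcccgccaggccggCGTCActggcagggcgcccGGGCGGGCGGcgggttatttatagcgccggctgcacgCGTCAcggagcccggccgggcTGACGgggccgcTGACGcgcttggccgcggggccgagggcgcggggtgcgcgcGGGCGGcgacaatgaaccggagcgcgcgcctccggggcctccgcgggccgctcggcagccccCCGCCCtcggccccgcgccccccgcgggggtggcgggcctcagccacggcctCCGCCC
Nr4a3: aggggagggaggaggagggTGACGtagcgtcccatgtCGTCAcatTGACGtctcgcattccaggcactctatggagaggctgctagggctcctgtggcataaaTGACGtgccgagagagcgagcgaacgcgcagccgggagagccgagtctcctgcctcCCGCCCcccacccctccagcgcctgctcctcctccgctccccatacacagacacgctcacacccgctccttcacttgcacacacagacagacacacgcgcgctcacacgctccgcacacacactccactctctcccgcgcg
Nr2f1: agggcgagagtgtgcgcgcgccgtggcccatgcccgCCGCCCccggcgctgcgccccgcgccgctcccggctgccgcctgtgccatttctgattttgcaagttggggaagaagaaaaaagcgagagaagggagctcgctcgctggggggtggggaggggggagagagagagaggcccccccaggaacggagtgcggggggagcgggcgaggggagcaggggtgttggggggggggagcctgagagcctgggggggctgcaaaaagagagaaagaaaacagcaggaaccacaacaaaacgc
Nr2f2: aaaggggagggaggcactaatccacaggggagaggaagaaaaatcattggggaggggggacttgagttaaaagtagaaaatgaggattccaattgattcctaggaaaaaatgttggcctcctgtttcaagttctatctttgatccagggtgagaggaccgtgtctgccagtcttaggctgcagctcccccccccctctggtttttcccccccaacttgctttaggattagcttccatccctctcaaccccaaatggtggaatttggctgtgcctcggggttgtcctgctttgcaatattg
TGACG or CGTCA was present 4 times in the Nr4a2 promoter and 4 times in the Nr4a3 promoter. At least 1 match was found in 20.8% of the 32851 promoters of that length, and 4 or more in 76 of them (0.231%). In Nr4a2 the matches began 200, 144, 123 and 111 bases before the start, and in Nr4a3 they began 231, 213, 205 and 147 bases before it. Nr2e1 had 3 matches, with the full element TGACGTCA (present in 1.79% of promoters) holding 2 of them, Nr2c1 and Nr2c2 had 1 each, and the promoters of Nr2f1, Nr2f2, Nr2f6, Esrra and Esrrg had none. The receptor element AGGTCA, or its reverse TGACCT, was found in 16.3% of all promoters and in none of the 10, and so neither were the longer elements that contain it, AAAGGTCA (1.51%), which Nr4a receptors bind, and TCAAGGTCA (0.423%), which estrogen-related receptors bind. GGGCGG or CCGCCC occurred in 35.7% of promoters, 5 times in that of Nr4a2, once in those of Nr4a3 and Nr2f1, and not in that of Nr2f2. The Nr2f2 window had 49.7% G and C, and that of Nr4a2 81.7%. RefSeq's start of Nr2f2 lies 6153 bases away from the start of the principal transcript in GENCODE, and that of Nr2f1 884 bases. That of Nr4a3 lies 152 bases away and that of Nr4a2 0 bases. Neither the Nr2f2 nor the Nr2f1 sequence shown therefore reaches the principal start. For Nr2c2, whose sequence is not shown, the distance is 1043 bases. A match is a match of letters in this window only.

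Levels are in TPM, which corrects for transcript length and for library size and allows levels of different genes to be set side by side. Sequencing depth cannot be read from TPM and is unknown. The number of genes at 1 TPM or more ran between 14153 and 14509 over the amygdala libraries, and between 13787 and 14391 over those of hippocampus. Ncor1, the gene targeted in NCoR1-KO, was at 32.1, 34.6 and 39.0 TPM in amygdala NCoR1-KO 1, 2 and 3, against 71.3, 117, 119 and 127 TPM in controls 1 to 4. In hippocampus it was at 41.9, 44.5 and 61.1 TPM in NCoR1-KO, against 81.6, 119, 129 and 137 TPM in controls, and in SMRT-KO of both tissues it lay between 101 and 143 TPM. Snap25, whose locus carries the Cre driver, averaged 1184 ± 54.4 TPM in NCoR1-KO, 1125 ± 77.3 TPM in SMRT-KO and 2033 ± 189 TPM in controls of the amygdala. In hippocampus it averaged 1292 ± 47.4, 1345 ± 316 and 2255 ± 53.1 TPM in the same order. Every knockout library lay below every control of its tissue. If controls lacked the driver, its effects and those of losing a corepressor cannot be told apart against control. The 12 hippocampus markers summed to 866 to 1230 TPM in hippocampus libraries and 266 to 303 TPM in amygdala libraries, while the 12 markers of amygdala nuclei summed to 392.2 to 762 TPM in amygdala and 270 to 485 TPM in hippocampus, so that those ranges overlapped. No marker list had a marker at 0 in a group. Some libraries stood apart in markers of neighbouring tissue. Hippocampus control 2 had 581 TPM of striatum markers against at most 278 TPM in the other 9, hippocampus SMRT-KO 2 had 612 TPM of thalamus markers against at most 166 TPM, and hippocampus NCoR1-KO 3 had 14050 TPM of choroid plexus markers against at most 7196 TPM. Amygdala SMRT-KO 2 had the lowest sum of amygdala nuclei markers, and amygdala control 2 the lowest sum of oligodendrocyte markers, 2590 TPM.

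All 10 genes were expressed at moderate levels in control tissue, and their order differed between the regions. In amygdala controls the order of mean levels was Nr2f1 (132 ± 5.61 TPM, SD, n = 4), Nr2f2 (83.6 ± 17.0), Nr2c2 (78.7 ± 2.16), Nr4a2 (40.3 ± 12.6), Esrra (25.9 ± 1.23), Nr2f6 (19.3 ± 0.967), Nr4a3 (17.6 ± 9.29), Nr2e1 (13.7 ± 1.04), Esrrg (13.4 ± 2.64) and Nr2c1 (8.64 ± 0.832). In hippocampus controls it was Nr2c2 (73.3 ± 4.08 TPM, SD, n = 4), Nr2f1 (66.3 ± 14.4), Nr4a3 (64.0 ± 6.49), Nr4a2 (40.9 ± 10.4), Esrra (31.2 ± 1.86), Nr2f2 (27.0 ± 18.4), Nr2f6 (17.7 ± 1.25), Nr2e1 (13.4 ± 0.950), Esrrg (12.5 ± 0.627) and Nr2c1 (10.7 ± 0.370). Neighbours whose ranges over the 4 libraries did not overlap were, in amygdala, Nr2f1 above Nr2f2, Nr2c2 above Nr4a2, Esrra above Nr2f6 and Esrrg above Nr2c1. In hippocampus they were Nr4a3 above Nr4a2, Nr2f6 above Nr2e1 and Esrrg above Nr2c1, and all other neighbours overlapped. Nr2f2 was the most variable of the 10 in hippocampus controls, with a coefficient of variation of 68.1% and a 4.80-fold range between libraries.

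**Figure D1:**
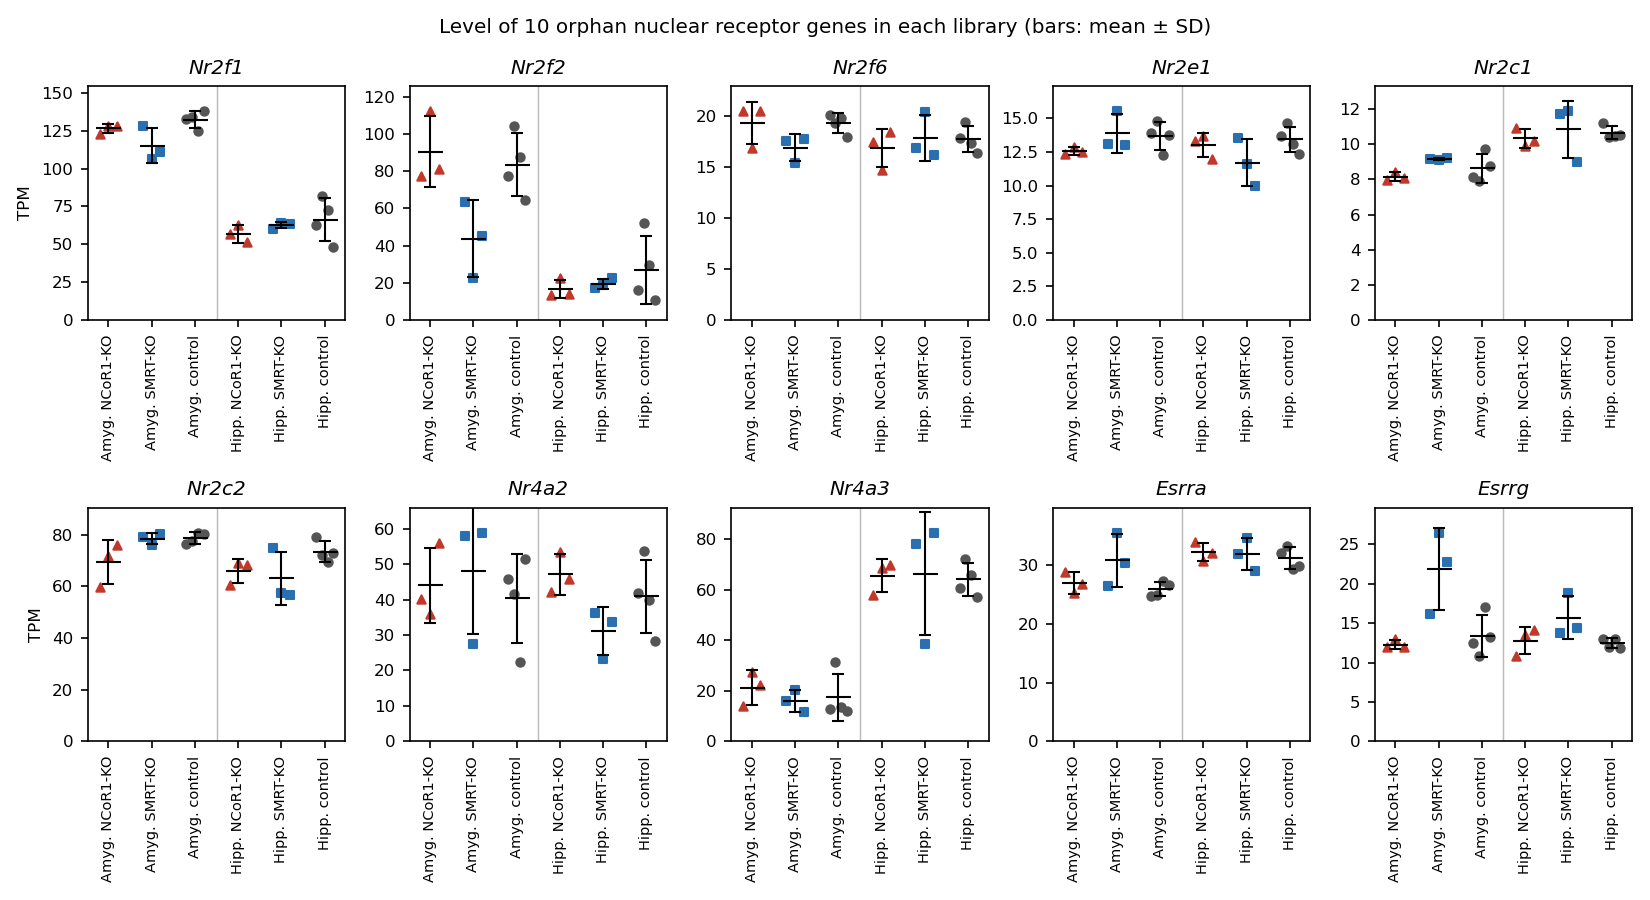
Level in TPM (vertical axis, from 0) of each of the 10 genes in every library, by tissue and genotype, with the mean and SD of each group. Nr2f1 and Nr2f2 sit higher, and Nr4a3 lower, in amygdala than in hippocampus, and Nr2f2 in hippocampus controls spans 10.8 to 52.0 TPM.

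In the GENCODE M21 annotation of GRCm38 most of the genes share bases with a gene on the other strand. Nr2f1 spans chr13:78188973-78199757, Nr2f2 chr7:70351944-70366735, Nr4a2 chr2:57106830-57124003, Nr4a3 chr4:48045153-48086447 and Esrrg chr1:187608791-188214885. Nr2f6 shares 5239 bases with Ocel1, and Nr2c2 shares 4770 bases with Mrps25, both on the opposite strand. Nr2f1, Nr2f2 and Esrrg share 1741, 1826 and 34973 bases with noncoding genes A830082K12Rik, B130024G19Rik and Gm36388 on the opposite strand, and Esrra shares 73 bases with Trmt112. The library kit keeps strand but no source used here gives the strand setting of the counting, so values of these genes are uncertain to that degree. Nr2e1, Nr4a2 and Nr4a3 overlap no other gene.

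The COUP-TF genes Nr2f1 and Nr2f2 were both higher in amygdala than in hippocampus. In controls Nr2f1 was at 133, 134, 125 and 138 TPM in amygdala, against 62.4, 82.0, 72.4 and 48.4 TPM in hippocampus, and the regions did not overlap. This is a 2.0-fold difference of the means and a log2 difference of 1.01 ± 0.11 (SE, limma's adjusted p = 2.91e-06). In bulk tissue, fewer cells of a type and less RNA per cell cannot be told apart. Nr2f2, which marks interneurons of the caudal ganglionic eminence and parts of the amygdala, was at 77.5, 105, 87.8 and 64.3 TPM in amygdala controls, against 15.9, 52.0, 29.3 and 10.8 TPM in hippocampus controls. Again every amygdala library lay above every hippocampus library, by 3.10-fold in the means (log2 difference 1.81 ± 0.37, adjusted p = 0.00109). The highest hippocampus value, 52.0 TPM, was in control 2, the library with the most striatum markers and, at 485 TPM, the highest sum of amygdala nuclei markers among hippocampus libraries, and the part of these in the result was not tested. Nr2f6, the third COUP-TF gene, averaged 19.3 ± 0.967 TPM in amygdala controls and 17.7 ± 1.25 TPM in hippocampus controls (log2 difference 0.12 ± 0.09, adjusted p = 0.341).

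The regional difference of Nr2f1 passed in both knockouts, and that of Nr2f2 in NCoR1-KO. In NCoR1-KO, Nr2f1 was at 123, 128 and 128 TPM in amygdala, against 56.8, 62.8 and 51.2 TPM in hippocampus (log2 difference 1.14 ± 0.13, adjusted p = 3.12e-06). Nr2f2 was at 77.5, 112 and 81.5 TPM in amygdala NCoR1-KO, against 13.4, 22.5 and 14.2 TPM in hippocampus NCoR1-KO (2.39 ± 0.43, adjusted p = 0.000278). In SMRT-KO, Nr2f1 was at 128, 106 and 111 TPM in amygdala, against 60.4, 64.3 and 63.7 TPM in hippocampus (0.86 ± 0.13, adjusted p = 7.82e-05). Nr2f2 in SMRT-KO was at 63.7, 22.4 and 45.2 TPM in amygdala and 17.0, 18.7 and 22.3 TPM in hippocampus. The groups did not overlap but amygdala SMRT-KO 2, at 22.4 TPM, lay just above hippocampus SMRT-KO 3, and the log2 difference of 1.03 ± 0.43 did not pass (adjusted p = 0.0786). Without amygdala SMRT-KO 2 it was 1.44 with adjusted p = 0.0230, and it also passed without hippocampus control 2 (adjusted p = 0.0327) or control 4 (adjusted p = 0.0455), without the libraries that stood apart in markers (1.42, adjusted p = 0.0113) and with same-numbered libraries of the regions paired by a replicate block (adjusted p = 0.0241). It was called in 5 of 29 alternative settings.

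Nr4a3, which encodes the activity-induced receptor NOR1, ran the other way, while its sister gene Nr4a2, which encodes NURR1, a receptor needed by dopamine neurons, passed in no genotype when all libraries were included. In controls Nr4a3 was at 12.8, 31.5, 13.8 and 12.2 TPM in amygdala, against 60.7, 72.2, 66.0 and 57.3 TPM in hippocampus. Amygdala control 2 stood well above the other 3 amygdala controls, but below every hippocampus library. Nr4a3 was 27.4% of its hippocampus level in amygdala controls (log2 difference -1.91 ± 0.28, adjusted p = 5.67e-05). The same held in NCoR1-KO, with 13.8, 27.3 and 22.5 TPM in amygdala against 57.9, 68.6 and 69.8 TPM in hippocampus (-1.63 ± 0.33, adjusted p = 0.000795). In SMRT-KO it was at 15.9, 20.4 and 11.7 TPM in amygdala against 78.0, 38.6 and 82.6 TPM in hippocampus (-1.94 ± 0.33, adjusted p = 0.000215). The lowest hippocampus value of Nr4a3, 38.6 TPM, was in SMRT-KO 2, the library with 612 TPM of thalamus markers. Nr4a2 was at 45.8, 41.5, 22.5 and 51.4 TPM in amygdala controls, against 41.8, 53.6, 39.9 and 28.2 TPM in hippocampus controls (adjusted p = 0.911), with a 95% interval of the log2 difference between -0.61 and 0.52. In SMRT-KO it averaged 48.1 ± 17.8 TPM in amygdala and 31.0 ± 6.78 TPM in hippocampus (0.56 ± 0.31, adjusted p = 0.185), and without amygdala SMRT-KO 2 the difference was 0.92 and passed (adjusted p = 0.0330). The calls for Nr2f1 and Nr4a3 in all 3 genotypes, and for Nr2f2 in NCoR1-KO and control, were kept in all 29 alternative settings.

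Smaller regional differences passed for Nr2c1 and Esrra. Nr2c1, which encodes the receptor TR2, averaged 8.64 ± 0.832 TPM in amygdala controls and 10.7 ± 0.370 TPM in hippocampus controls, with no overlap (log2 difference -0.28 ± 0.08, adjusted p = 0.0134), and in NCoR1-KO the log2 difference was -0.31 ± 0.09 (adjusted p = 0.0143). Esrra, which encodes the receptor ERRα, averaged 25.9 ± 1.23 TPM in amygdala controls and 31.2 ± 1.86 TPM in hippocampus controls, also with no overlap (-0.26 ± 0.08, adjusted p = 0.0178). In NCoR1-KO the Esrra difference was -0.25 ± 0.09 (adjusted p = 0.0369). These calls were less stable: in controls that of Esrra ended without hippocampus control 2 (adjusted p = 0.0521), and both ended in controls without the libraries that stood apart in markers (adjusted p = 0.0628 for Nr2c1 and 0.0502 for Esrra). In NCoR1-KO that of Nr2c1 ended without hippocampus NCoR1-KO 1 (adjusted p = 0.0613), and that of Esrra without hippocampus NCoR1-KO 1 or 3 or amygdala NCoR1-KO 2 or 3 (adjusted p between 0.0784 and 0.135). Nr2c2, which encodes the receptor TR4, passed in SMRT-KO alone, at 79.1, 76.0 and 80.1 TPM in amygdala against 75.0, 57.6 and 56.8 TPM in hippocampus (0.32 ± 0.10, adjusted p = 0.0168), and not without hippocampus SMRT-KO 2 or 3, amygdala SMRT-KO 3 or the libraries apart (adjusted p between 0.0551 and 0.123).

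Counted over the 10 genes, 2 were higher and 3 lower in amygdala than in hippocampus controls (limma, adjusted p under 0.05), and the same 5 had non-overlapping libraries. Over all 14210 genes tested, 32.5% passed and 32.6% did not overlap, so 5 of 10 is not far from the background. In NCoR1-KO the same 5 genes passed, in the same directions, against 37.6% of all genes, and in SMRT-KO 2 were higher and 1 lower, against 29.6%. The median log2 difference of the 10 in controls was 0.05, beside 0.03 over all genes. Nr2e1 averaged 13.7 ± 1.04 TPM in amygdala controls and 13.4 ± 0.950 TPM in hippocampus controls (adjusted p = 0.847). Esrrg, which encodes the receptor ERRγ, averaged 13.4 ± 2.64 TPM in amygdala controls and 12.5 ± 0.627 TPM in hippocampus controls (adjusted p = 0.711). In SMRT-KO Esrrg averaged 21.8 ± 5.22 TPM in amygdala and 15.7 ± 2.72 TPM in hippocampus, and the log2 difference of 0.44 ± 0.16 did not pass (adjusted p = 0.0525). It was called in 6 of 29 alternative settings, among them the replicate block (adjusted p = 0.0143) and the fit without amygdala SMRT-KO 1 (0.63, adjusted p = 0.00724), with adjusted p up to 0.233 in the others. Nr2e1 in SMRT-KO (0.23 ± 0.10, adjusted p = 0.0893) passed without hippocampus SMRT-KO 1 (0.33, adjusted p = 0.0205), and Nr2c1 in SMRT-KO (-0.21 ± 0.09, adjusted p = 0.0937) passed without hippocampus SMRT-KO 3 (-0.33, adjusted p = 0.00552), with quantile normalization (adjusted p = 0.00484) and with median centring (adjusted p = 0.0198). Whether a knockout changed a regional difference was tested directly with an interaction term. No gene passed for NCoR1-KO (0% of 14210 genes, with 522 at an unadjusted p under 0.05) and none for SMRT-KO (0%, with 1257), by limma. Among the 10, the Nr2f2 difference of the SMRT-KO effect between amygdala and hippocampus was -0.78 ± 0.56 (adjusted p = 0.759) and that of Esrrg was 0.36 ± 0.22 (adjusted p = 0.675).

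**Figure D2:**
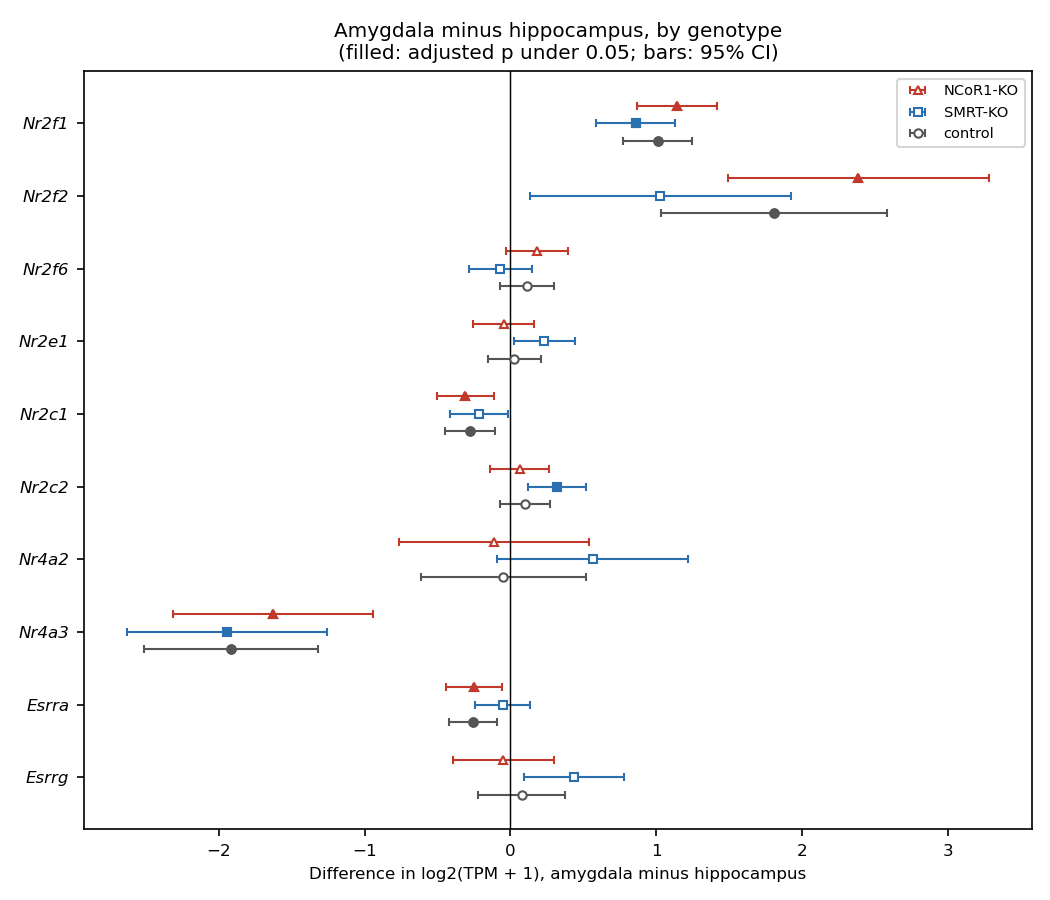
Difference in log2(TPM + 1) between amygdala and hippocampus (horizontal axis) for each gene in NCoR1-KO, SMRT-KO and control, with 95% confidence intervals and filled points for an adjusted p under 0.05. The points of Nr2f1 lie between 0.86 and 1.14 and those of Nr4a3 between -1.94 and -1.63 in the 3 genotypes.

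The genotype comparisons in amygdala asked whether loss of either corepressor in neurons shifted these receptors. None of the 10 genes passed in NCoR1-KO or in SMRT-KO against control, while 2 passed when the knockouts were compared with each other. Against control, 0.411% of 14606 genes passed in NCoR1-KO and 0.11% in SMRT-KO, and 12.1% and 18% of genes had non-overlapping groups. Of the 10 receptors, Nr2c2 alone did not overlap in NCoR1-KO, and Nr2f2 and Nr2f6 did not overlap in SMRT-KO. Between NCoR1-KO and SMRT-KO, 11.5% of genes passed and 38.4% did not overlap, and of the 10 receptors 2 passed and 4 did not overlap, counts near that background.

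Nr2f2 was higher in amygdala NCoR1-KO than in SMRT-KO. The NCoR1-KO libraries were at 77.5, 112 and 81.5 TPM, those of SMRT-KO at 63.7, 22.4 and 45.2 TPM and the controls at 77.5, 105, 87.8 and 64.3 TPM. Every NCoR1-KO library lay above every SMRT-KO library and within or close to the control range, and every SMRT-KO library lay below every control. NCoR1-KO was 2.07-fold above SMRT-KO (log2 difference 1.13 ± 0.31, adjusted p = 0.0432), whereas SMRT-KO at 52.4% of control did not pass (-1.01 ± 0.29, adjusted p = 0.0936). The sum of the 12 amygdala nuclei markers was 623 to 762 TPM in NCoR1-KO, 392.2 to 635 TPM in SMRT-KO and 550 to 685 TPM in controls, and it was lowest in SMRT-KO 2, the library lowest in Nr2f2. Of those markers 8 were higher and 4 lower in NCoR1-KO than in SMRT-KO, with 1 called in each direction, and the part of tissue composition in the result was not tested.

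Esrrg was lower in amygdala NCoR1-KO than in SMRT-KO. The NCoR1-KO libraries were at 11.96, 12.94 and 11.98 TPM, those of SMRT-KO at 16.2, 26.5 and 22.8 TPM and the controls at 12.5, 10.8, 17.1 and 13.2 TPM. The knockouts did not overlap, but SMRT-KO 1 lay below control 3. NCoR1-KO had 56.3% of the SMRT-KO level (log2 difference -0.75 ± 0.18, adjusted p = 0.0259), and SMRT-KO against control did not pass (0.66 ± 0.16, adjusted p = 0.0726). The 11 parvalbumin neuron markers summed to 691 to 788 TPM in NCoR1-KO, 906 to 1332 TPM in SMRT-KO and 701 to 915 TPM in controls, highest in SMRT-KO 2, the library highest in Esrrg. All 11 were lower in NCoR1-KO than in SMRT-KO, 8 of them past the threshold, among them Pvalb, the calcium buffer that names these cells, at 19.1 ± 3.99 TPM in NCoR1-KO, against 65.9 ± 32.7 TPM in SMRT-KO (log2 difference -1.63 ± 0.33, adjusted p = 0.0179). Erbb4, the neuregulin receptor, was at 3.38 ± 0.520 TPM in NCoR1-KO, against 28.3 ± 2.35 TPM in SMRT-KO (-2.75 ± 0.33, adjusted p = 0.00213). The other 6 called were Scn1a, Kcnab3, Syt2, Osbpl3, Cplx1 and Nefh. Striatum markers summed to 683 to 1153 TPM in NCoR1-KO, 1221 to 1973 TPM in SMRT-KO and 490 to 1383 TPM in controls, and oligodendrocyte markers to 3788 to 5187, 7738 to 11654 and 2590 to 9192 TPM in the same order. All 10 striatum and all 9 oligodendrocyte markers tested were on the lower side in NCoR1-KO against SMRT-KO, with 1 called in each list. The 8 microglia markers summed to 471 to 510 TPM in NCoR1-KO, 627 to 684 TPM in SMRT-KO and 527 to 664 TPM in controls, and all 8 were lower in NCoR1-KO than in SMRT-KO without overlap, 7 of them past the threshold. Rn45s, a ribosomal RNA precursor that mRNA libraries are meant to leave out, took 1.23 to 1.49% of all TPM in NCoR1-KO, 1.77 to 3.265% in SMRT-KO and 1.25 to 2.15% in controls, so that the knockouts did not overlap. The part of these differences in the Esrrg and Nr2f2 results was not tested.

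**Figure D3:**
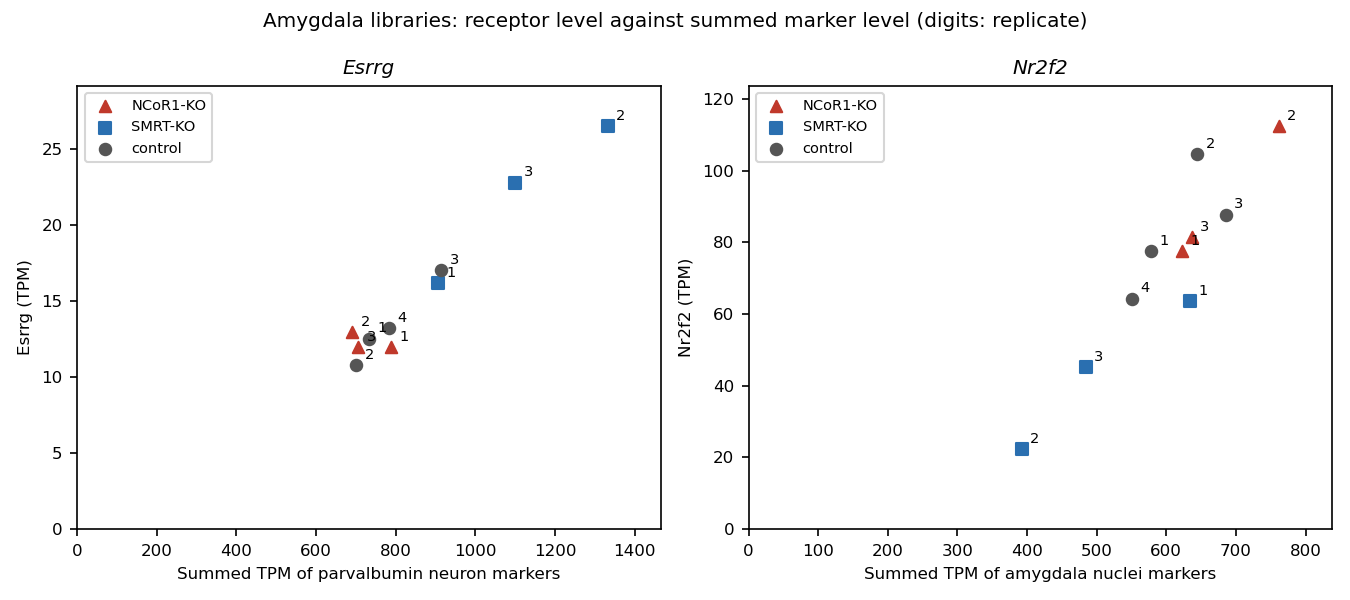
TPM of Esrrg against the summed TPM of 11 parvalbumin neuron markers (left) and of Nr2f2 against the summed TPM of 12 amygdala nuclei markers (right) in the 10 amygdala libraries, with the replicate number beside each point. SMRT-KO 2 is highest in Esrrg (26.5 TPM) and lowest in Nr2f2 (22.4 TPM).

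Both calls between the knockouts depended on which libraries were included and on the settings of the fit. The call of Nr2f2 was kept in 8 of 20 alternative settings, with adjusted p between 0.0152 and 0.142, and that of Esrrg in 13 of 20, with adjusted p between 0.00983 and 0.0970. Leaving out any knockout library of the amygdala other than SMRT-KO 1 ended both calls: without NCoR1-KO 1, 2 or 3 the adjusted p was 0.0725, 0.142 or 0.0769 for Nr2f2 and 0.0663, 0.0703 or 0.0632 for Esrrg. Without SMRT-KO 2 or 3 it was 0.105 or 0.0968 for Nr2f2 and 0.0970 or 0.0912 for Esrrg, and the log2 difference of Nr2f2 without SMRT-KO 2 was 0.72. The call of Nr2f2 also ended without control 1 (adjusted p = 0.0526) or control 3 (adjusted p = 0.0538), which share its variance estimate. It ended as well without a filter on low values (adjusted p = 0.0699) and without a variance trend (adjusted p = 0.0649). With only the 2 groups compared its adjusted p was 0.0603. A replicate block ended both calls (adjusted p = 0.0876 for Nr2f2 and 0.0513 for Esrrg). Without SMRT-KO 1, 697 of 14565 genes passed in SMRT-KO against control, and 3 of the 10 receptors were among them: Nr2f2 (-1.34, adjusted p = 0.0296), Esrrg (0.85, adjusted p = 0.0220) and Nr2f1 (-0.28, adjusted p = 0.0262). Nr2f1 then also passed between the knockouts (0.22, adjusted p = 0.0359).

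No other receptor passed a genotype comparison in amygdala with all libraries included. Nr2f1 was at 128, 106 and 111 TPM in SMRT-KO, against 133, 134, 125 and 138 TPM in controls (log2 difference -0.20 ± 0.06, adjusted p = 0.109), with SMRT-KO 1 inside the control range. Esrra averaged 30.8 ± 4.53 TPM in SMRT-KO and 25.9 ± 1.23 TPM in controls (0.23 ± 0.09, adjusted p = 0.174), and Nr2f6 averaged 16.9 ± 1.29 TPM in SMRT-KO and 19.3 ± 0.967 TPM in controls (-0.18 ± 0.08, adjusted p = 0.235). Nr2c2 was at 59.9, 71.9 and 76.1 TPM in NCoR1-KO, against 76.3, 77.5, 80.8 and 80.2 TPM in controls (-0.19 ± 0.07, adjusted p = 0.299). Nr2c1 averaged 8.15 ± 0.253 TPM in NCoR1-KO, against 9.15 ± 0.0404 TPM in SMRT-KO, and Nr2e1 averaged 12.6 ± 0.291 TPM in NCoR1-KO, against 13.9 ± 1.45 TPM in SMRT-KO, each without overlap between the knockouts (adjusted p = 0.265 and 0.355). Nr4a3 averaged 21.2 ± 6.84 TPM in NCoR1-KO, 16 ± 4.34 TPM in SMRT-KO and 17.6 ± 9.29 TPM in controls. Nr4a2 averaged 44.0 ± 10.6 TPM in NCoR1-KO, 48.1 ± 17.8 TPM in SMRT-KO and 40.3 ± 12.6 TPM in controls, and its 95% intervals against control ran between -0.53 and 0.85 in NCoR1-KO and between -0.45 and 0.92 in SMRT-KO on the log2 scale. Such intervals do not show that the Nr4a genes were unaffected.

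In hippocampus no gene of the 10, and no gene at all, passed in any genotype comparison. By limma 0 of 14501 genes (0%) passed in NCoR1-KO against control, 0 (0%) in SMRT-KO against control and 0 (0%) between the knockouts, with 658, 813 and 956 genes at an unadjusted p under 0.05. Groups did not overlap for 8.09%, 4.78% and 11.4% of genes in these comparisons, and for 1 of the 10 receptors in each. Nr2c2 was at 60.6, 69.1 and 68.3 TPM in NCoR1-KO, against 79.0, 72.0, 69.4 and 72.8 TPM in controls (log2 difference -0.15 ± 0.10, adjusted p = 0.998). Esrrg was at 13.8, 18.8 and 14.4 TPM in SMRT-KO, against 12.99, 12.01, 13.03 and 11.85 TPM in controls, all above the highest control (0.30 ± 0.12, adjusted p = 0.779). Its highest value was in SMRT-KO 2, the library with the thalamus markers, and in the same comparison Pvalb averaged 72.9 ± 11.3 TPM in SMRT-KO and 53.4 ± 6.33 TPM in controls (adjusted p = 0.779). Nr4a2 was at 42.1, 53.4 and 45.8 TPM in NCoR1-KO, against 36.2, 23.3 and 33.5 TPM in SMRT-KO, with no overlap (0.60 ± 0.22, adjusted p = 0.728). Nr2e1 averaged 11.7 ± 1.76 TPM in SMRT-KO and 13.4 ± 0.950 TPM in controls (-0.19 ± 0.11, adjusted p = 0.779). Nr2f2 averaged 16.7 ± 5.04 TPM in NCoR1-KO, 19.3 ± 2.72 TPM in SMRT-KO and 27.0 ± 18.4 TPM in controls, and its difference in NCoR1-KO (-0.46 ± 0.43, adjusted p = 0.998) lay within the spread of the controls. Rn45s took 1.04 to 1.66% of all TPM in hippocampus NCoR1-KO, 0.953 to 1.55% in SMRT-KO and 1.87 to 3.28% in controls. Every hippocampus knockout library thus lay below every hippocampus control in Rn45s. In amygdala controls Rn45s took 1.25 to 2.15%. The part of Rn45s in the hippocampus and regional comparisons was not tested.

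**Figure D4:**
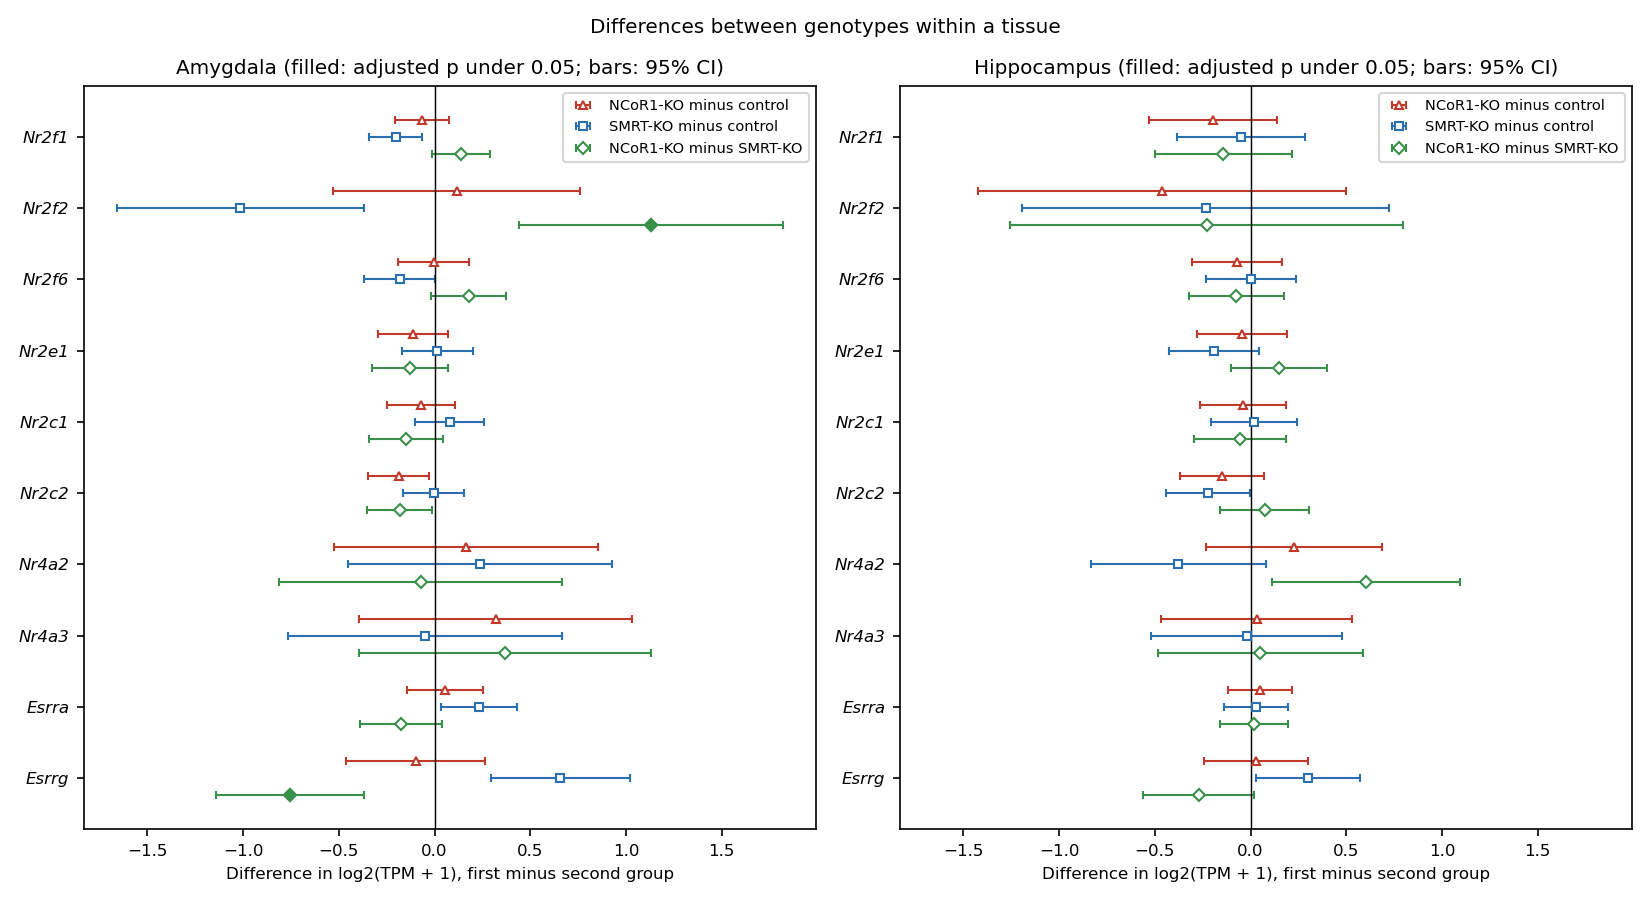
Difference in log2(TPM + 1) between genotypes (horizontal axis) for each gene in amygdala (left) and hippocampus (right), with 95% confidence intervals and filled points for an adjusted p under 0.05. The 2 filled points are Nr2f2 (1.13) and Esrrg (-0.75) in amygdala NCoR1-KO against SMRT-KO.

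Of the ratios within subfamilies, that of the Nr4a genes separated the regions in every library and the others overlapped in part. Nr2f2 made up 38.0 ± 4.87% (SD, n = 3) of the sum of Nr2f1, Nr2f2 and Nr2f6 in amygdala NCoR1-KO. It made up 24 ± 7.64% in amygdala SMRT-KO and 35.3 ± 4.95% in amygdala controls (n = 4). In hippocampus it made up 18.2 ± 3.78% in NCoR1-KO, 19.3 ± 2.19% in SMRT-KO and 22.3 ± 8.88% in controls, and the regions overlapped in SMRT-KO and in controls. The ratio of Nr4a2 to Nr4a3 was above 1 in all 10 amygdala libraries, at 2.24 ± 0.827 in NCoR1-KO, 3.34 ± 1.86 in SMRT-KO and 2.69 ± 1.43 in controls, and below 1 in all 10 hippocampus libraries, at 0.720 ± 0.0609, 0.491 ± 0.102 and 0.632 ± 0.109 in the same order. The ratio of Esrra to Esrrg was 2.20 ± 0.234 in amygdala NCoR1-KO, 1.44 ± 0.174 in amygdala SMRT-KO and 1.98 ± 0.292 in amygdala controls, against 2.57 ± 0.497, 2.06 ± 0.240 and 2.51 ± 0.213 in hippocampus, with overlap in NCoR1-KO and in controls. These ratios are descriptions and were not tested.

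**Figure D5:**
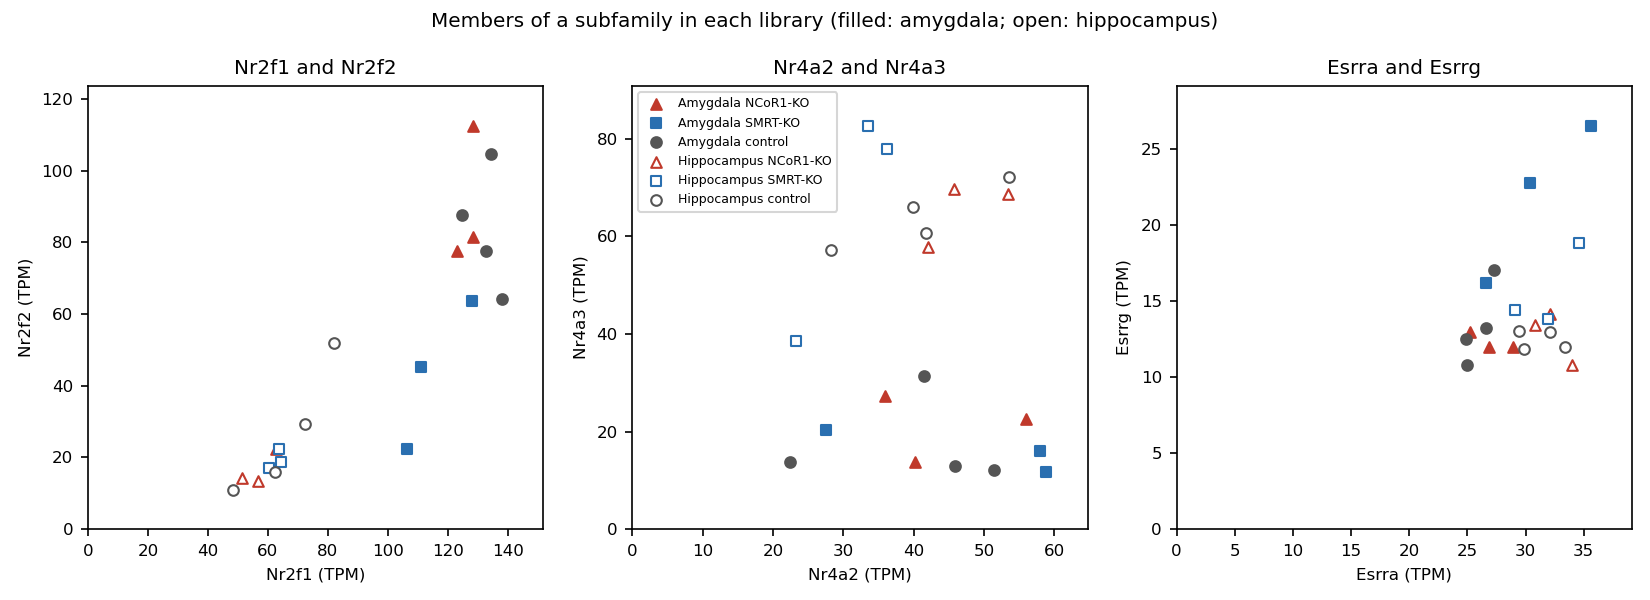
TPM of Nr2f2 against Nr2f1, of Nr4a3 against Nr4a2 and of Esrrg against Esrra in each of the 20 libraries, with filled symbols for amygdala and open symbols for hippocampus. The regions separate along Nr2f1 and along Nr4a3, and overlap along Nr4a2 and Esrrg.

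Genes that work with these receptors were described as lists, with counts set beside the share of all genes given above. Of 26 cofactors and partners tested, 4 were higher and 8 lower in amygdala than in hippocampus controls, with a median log2 difference of -0.10 beside 0.03 over all genes. Zfpm1 and Zfpm2, which encode the FOG proteins that bind COUP-TFs, were lower at 12.3 ± 1.78 and 12.7 ± 2.03 TPM in amygdala, against 26.5 ± 1.73 and 24.7 ± 1.38 TPM in hippocampus (log2 differences -1.06 ± 0.09 and -0.92 ± 0.13). Bcl11a, which encodes the COUP-TF interacting protein CTIP1, was lower, at 82.7 ± 12.6 TPM in amygdala and 126 ± 7.53 TPM in hippocampus (-0.61 ± 0.14, adjusted p = 0.00217). Rxrg, a partner with which some Nr4a receptors pair, was higher, at 20.9 ± 3.73 TPM in amygdala and 4.98 ± 4.37 TPM in hippocampus (2.11 ± 0.33). In amygdala NCoR1-KO against control Ncor1 alone passed in this list, and in SMRT-KO none did.

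Between amygdala NCoR1-KO and SMRT-KO, 2 of the 26 cofactors were higher and 3 lower. Atn1, which encodes atrophin 1, a corepressor that binds TLX, averaged 127 ± 5.58 TPM in NCoR1-KO, against 103 ± 9.70 TPM in SMRT-KO (adjusted p = 0.0230), and Hdac3, the histone deacetylase of both corepressor complexes, 134 ± 3.58 TPM in NCoR1-KO, against 115 ± 4.17 TPM in SMRT-KO (adjusted p = 0.0241). Ncor1, Zfpm1 and Nrip1 were lower. Nrip1, which encodes a corepressor of estrogen-related receptors, was at 16.6 ± 4.29 TPM in NCoR1-KO, against 25.5 ± 2.65 TPM in SMRT-KO (log2 difference -0.62 ± 0.16, adjusted p = 0.0372). Nrip1 is also in the list of 28 estrogen-related receptor coactivators and mitochondrial targets, so the only call of that list in this comparison is the same one. The other 27 did not pass. Ppargc1a, which encodes the coactivator PGC-1α, averaged 24.1 ± 2.23 TPM in NCoR1-KO, against 30.5 ± 4.34 TPM in SMRT-KO (-0.32, adjusted p = 0.0678).

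Of the 28 estrogen-related receptor coactivators and mitochondrial targets, none passed in either knockout against control in either tissue. Median log2 differences were 0.06 in amygdala NCoR1-KO and 0.04 in amygdala SMRT-KO, beside -0.03 over all genes in both. In amygdala NCoR1-KO 9 of the 28 did not overlap with control, all of them higher, against 12.1% of all genes. In amygdala SMRT-KO all 28 overlapped with control. In amygdala against hippocampus controls 5 were lower and none higher, among them Etfdh and Mfn2. The largest difference of the 5, that of Etfdh, an electron transfer enzyme, was -0.26 ± 0.05 (adjusted p = 0.000526), at 32.4 ± 0.500 TPM in amygdala and 39.1 ± 0.842 TPM in hippocampus.

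Activity-regulated genes and CREB coactivators, listed together, passed in both directions. Of 20 tested, Dusp1 and Fos were higher in amygdala than in hippocampus controls. Bdnf and Crtc1, which encodes a CREB coactivator, were lower. Fos, the immediate early gene used as a mark of recent activity, averaged 39.2 ± 16.9 TPM in amygdala and 20.2 ± 13.6 TPM in hippocampus, with overlapping libraries (log2 difference 1.02 ± 0.38, adjusted p = 0.0478). Bdnf, an activity-regulated growth factor, averaged 22.2 ± 7.57 TPM in amygdala and 39.5 ± 3.73 TPM in hippocampus (-0.86 ± 0.19, adjusted p = 0.00185). In hippocampus NCoR1-KO all 20 lay on the higher side of control by the fitted mean, with a median log2 difference of 0.20 beside a value near 0 over all genes, and 0 called. In hippocampus SMRT-KO 18 of 20 lay on the lower side, with a median of -0.17 beside -0.02 and 0 called, and in both comparisons limma gave no adjusted p under 0.779. The 2 comparisons share their controls. In hippocampus NCoR1-KO against SMRT-KO, 19 of the 20 were higher and 1 lower, with a median of 0.39 beside 0.02 over all genes. There 12 of the 20 did not overlap, all of them higher, against 11.4% of all genes, and 0 were called. In amygdala NCoR1-KO against control 17 were higher and 3 lower, with a median of 0.31 beside -0.03 and 0 called. In amygdala SMRT-KO against control 9 were higher and 11 lower, with 0 called.

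Further lists concern cells in which Nr2f2 and Nr2e1 are known to act. Of 13 markers of caudal ganglionic eminence interneurons, 4 were higher (Lamp5, Crh, Vip and Reln) and 2 lower (Prox1 and Cck) in amygdala than in hippocampus controls. Vip, a neuropeptide of these cells, averaged 58.5 ± 11.1 TPM in amygdala and 23.0 ± 5.30 TPM in hippocampus (log2 difference 1.32 ± 0.23). Prox1, which dentate granule cells also express, averaged 8.38 ± 1.1 TPM in amygdala and 66.5 ± 15.5 TPM in hippocampus (-2.82 ± 0.28). In amygdala NCoR1-KO against SMRT-KO, 4 of the 13 were on the higher side and 9 on the lower, and Ndnf and Lamp5 passed, both lower, with Lamp5 at 107 ± 4.84 TPM in NCoR1-KO, against 193 ± 73.1 TPM in SMRT-KO (adjusted p = 0.0365). Of 16 neural progenitor genes and TLX targets, 3 were higher (Hes5, Fabp7 and Cdkn1a) and 2 lower (Emx2 and Mki67) in amygdala than in hippocampus controls, and none passed in a knockout against control.

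For each receptor the 2 genes that varied most like it were found over the 20 libraries. Each gene was first centred on its mean in every tissue and genotype group. Candidates were 10553 genes with a mean of 5 TPM or more in both tissues, with predicted and sex-linked genes left out. Libraries differed in markers of neighbouring tissue and their depth is unknown, so these correlations are descriptions. Nr2c2 varied most like Arfgef1 (r = 0.962) and Nrip1 (r = 0.956), Nr2f2 like Wdr6 (r = 0.935) and Hap1 (r = 0.932), and Nr2f1 like Sergef (r = 0.935) and Brpf3 (r = 0.904). Nr4a3 varied most like the immediate early genes Klf10 (r = 0.892) and Egr3 (r = 0.872). The nearest genes of Nr4a2 were Rgs12 (r = 0.942) and Ntng2 (r = 0.841), and longer lists were not compared. Esrra was nearest to Zfp651 and Hcn2, and Esrrg to Ppt1 and Dhrs4, with r between 0.805 and 0.863. The nearest genes of Nr2f6 (Ptk7 and Bad), Nr2e1 (Rufy2 and Mta1) and Nr2c1 (Rps28 and Fnip2) had r between 0.818 and 0.904. Some correlations were weaker within 1 tissue, with r = 0.648 for Nr4a2 and Ntng2 in hippocampus and 0.438 for Nr2c1 and Fnip2 in amygdala.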

How the data were processed

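Total RNA of hippocampus and amygdala at postnatal day 21 was extracted with a lipid tissue kit and sequenced from stranded mRNA libraries, per the labels' protocols. The authors deposited 1 table of gene-level TPM values per tissue. Tools named in the submitters' processing notes, without a role or order, are RSEM 1.3.3, STAR 2.5.3a, bcl2fastq and fastp 0.21.0, and the build is mm10. No source used here gives the annotation. TPM totals were 999999 to 1000001 per library, and they carry neither the depth nor a counting error. All 20 columns matched a labelled sample.

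Values were analysed as log2(TPM + 1), a scale that understates changes of genes with low levels, in R 4.3.3 with limma 3.58.1, with moderated variances and a trend of variance with expression. Genes at 1 TPM or more in 3 or more of a tissue's 10 libraries were tested. Each tissue was fitted with its 3 genotypes as groups. Regional differences and interactions were fitted over all 20 libraries in 6 groups, unpaired, over genes that passed in both tissues. No label says that same-numbered libraries of the regions share an animal. Their deviations from the group means correlated with r between 0.000814 and 0.480, over 0.1 in 8 of 10 pairs (3 of 3 in NCoR1-KO, 3 of 4 in control, 2 of 3 in SMRT-KO) and in 2 of 24 pairs with different numbers, a hint of pairing from the data. Values with a replicate block therefore stand beside results whose call it changes. Within a tissue, 2 of 9 same-numbered pairs were over 0.1 in each. The 2 tables were taken as comparable because TPM is scaled within each library. Benjamini-Hochberg adjustment ran over all tested genes, with a threshold of 0.05, and a gene is called when it passed. The procedure was tested on simulated data. Groups do not overlap when every library of one lies above every library of the other. Means are given with SD over libraries and log2 differences with the SE of the model. Alternatives were other pseudocounts, filters and scalings, no variance trend, a replicate block, only the 2 groups compared and each library left out in turn. Leaving out 5 libraries with unusual tissue markers was chosen after seeing the data.

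The 10 genes were named throughout. From each list the genes that passed could be named, or up to 3 of smallest p, and for each receptor the 2 genes with the highest correlation. The members, lists and alternatives were chosen with earlier results of these data known. Promoters are from RefSeq (GRCm38.p6) and positions from GENCODE M21. Some results are not reported here.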

Additional observations from a re-analysis of the deposited data

Results flagged for a closer look

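Nr4a3 in amygdala control 2 was at 31.5 TPM (31.45 before rounding), against 12.8, 13.8 and 12.2 TPM in amygdala controls 1, 3 and 4. Its gap to the next library took 0.916 of the range of the 4, above the 95% critical value of Dixon's test. The test was run on 20 groups of 4 control libraries, 10 genes in each tissue, and chance flags about 1 in 20. The same library had the lowest sum of oligodendrocyte markers in amygdala, 2590 TPM. It also had the highest sum of the 20 activity-regulated genes and CREB coactivators among amygdala controls, 1050 TPM against 650 to 827 TPM. The part of these in the value was not tested. Without this library the difference of Nr4a3 between amygdala and hippocampus controls was -2.22 on the log2 scale and was called.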

How the results depend on the processing

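Of 110 differences of the 10 genes, 57 were beyond 1 SE. Over their alternatives 1349 of 1401 values kept direction and call, 31 lost a call, 20 gained one and 1 changed sign: Nr2f2 in hippocampus NCoR1-KO against control was 0.0113 without the libraries whose markers stood apart. Of the 53 differences within 1 SE, 41 changed sign in at least 1 alternative and none was called. Counts over all genes moved more. For amygdala NCoR1-KO against control, 60 genes called became 38 with a pseudocount of 5, 16 without a filter, 17 without a variance trend and 4 with only the 2 groups, and 0 (without NCoR1-KO 2) to 126 (without control 2) with a library left out. For amygdala SMRT-KO against control, 16 became 2 without a filter, 143 with a mean of at least 5 TPM, 3 without a trend, 4 with the replicate block, 1 without the libraries apart and 2 with only the 2 groups, and 0 (without SMRT-KO 3) to 697 (without SMRT-KO 1) with a library left out. Between the amygdala knockouts, 1679 became 854 with the block and 673 without the libraries apart, and 246 (without SMRT-KO 3) to 2218 with a library left out. In hippocampus, counts of 0 became 1 with quantile normalization in each knockout against control, 1 in NCoR1-KO against control and 5 between knockouts with only the 2 groups, and 0 to 1 with a library left out. For the SMRT-KO interaction 0 became 2 with a pseudocount of 5 and 1 without a filter, and 0 to 18 (without hippocampus SMRT-KO 1). The causes were not tested.

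With a replicate block the adjusted p between amygdala knockouts was 0.0876 for Nr2f2 and 0.0513 for Esrrg, where the numbers do not pair the samples. Between regions the block, which pairs same-numbered libraries, brought Nr2f2 (adjusted p = 0.0241) and Esrrg (adjusted p = 0.0143) in SMRT-KO past the threshold and changed no other call of the 10 genes. Depth is unknown, so it cannot be said which differences it hides.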
